A study of Mus musculus with 70 samples.

Results

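Genes of monoamine signalling were examined in mice bred for high (HAB) or low (LAB) anxiety-related behaviour. Of 9 genes considered (the dopamine receptors Drd1 and Drd2, the serotonin receptors Htr1a, Htr2a and Htr2c, the transporters Slc6a4 and Slc18a2, and the enzymes Th and Ddc), 4 had spots on the MPIP24k cDNA array under their full name or symbol. These were Ddc and Slc6a4 with 2 probes each, and Htr1a and Htr2a with 1 probe each, or 6 of 22824 probes. Drd1, Drd2, Htr2c, Th and Slc18a2 were not matched and are not analysed here. The array gives gene names but no coordinates, and probes of the same name are kept apart throughout.

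HAB mice and LAB mice were males of selectively bred lines on the outbred CD-1 (ICR) background, 10 weeks old and under basal conditions. The authors report that the mice were tested on the elevated plus-maze and were killed days after a tail-suspension test. No unselected CD-1 mice were among the samples. Tissue was punched from 2 hypothalamic nuclei, the paraventricular (PVN) and the supraoptic (SON), from the central (CeA), medial (MeA) and basolateral/lateral (BLA) amygdala, from the nucleus accumbens (NAc) and from the anterior cingulate cortex (Cg). RNA of 6 HAB mice was amplified and pooled in each region, likewise that of 6 LAB mice, and each pair of pools was hybridized on 10 two-colour arrays, 5 in which HAB carried the dye Cy3 and 5 in which it carried Cy5. All 70 arrays therefore stem from 14 pools. Arrays of 1 region repeat the same pair of pools, and tests between arrays compare these pools and not the lines. Punches mix cell types, so that fewer cells of a type and less RNA per cell cannot be told apart.

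Monoamines are made from amino acids. Dopamine and serotonin share their last synthetic step, the decarboxylation by dopa decarboxylase (Ddc), and serotonin is cleared from the synapse by the serotonin transporter (Slc6a4, also called SERT), the target of many antidepressants. The neurons that release them have their cell bodies mainly in the midbrain and brainstem and send axons to the regions sampled here, where receptors such as Htr1a, which inhibits its target neurons, and Htr2a, which excites them, receive the signal.

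Median spot intensities of the arrays ranged from 135 to 2480, against medians of 39.98 to 940 for 1170 empty spots, and no array had more than 19 saturated spots. The 135 came from the CeA, replicate 1 with HAB in Cy3, where 15.2% of probes passed the limit below in Cy3. Replicate 4 of the same set gave the 2480 and the 940. A probe was counted as above the empty spots in a channel where its intensity exceeded their median by more than 2 median absolute deviations. Of all probe values 53.4% passed this limit, and so did 16.4% of the empty spots themselves. As a check of the labels, the probe of Rab6, a small GTPase of Golgi transport that was chosen after its values were seen, was higher in HAB on 70 of 70 arrays, with a mean log2 HAB/LAB of 2.10. HAB/LAB ratios over all probes correlated weakly between arrays of the same dye orientation (median r of 0.081 to 0.192 by region). The means of the opposite orientations correlated between -0.47 and 0.01, below 0 in 6 of 7 regions. Region markers followed the labels in part. Of 7 neurosecretory probes, 6 were called higher and 1 lower in the PVN than in the other regions (Trh by 2.44 on the log2 scale), and 3 higher and 1 lower in the SON (Avp, the gene of vasopressin, by 1.45). Of 8 striatal probes 5 were higher and 0 lower in the NAc. Ppp1r1b, also a striatal marker but counted below in a wider monoamine list, was not called there (-0.003, adjusted p = 0.988, limma). Of 6 amygdala probes, however, 2 were higher and 3 lower in the CeA and in the MeA, while 5 were higher in the PVN. Sst, also an amygdala marker, was counted as neurosecretory. Its 2 probes stood at 0.298 (adjusted p = 0.0484, limma) and 0.202 (adjusted p = 0.139) in the CeA, and neither was called in the MeA. Of 4 probes of excitatory forebrain neurons 1 was higher and 2 lower in the BLA, and 1 higher and 0 lower in the Cg. Over all probes, 30.5% were called higher in the PVN, 23.4% in the SON, 19.4% in the NAc and 28.4% in the CeA. The share was 20.1% in the MeA, 29.6% in the BLA and 21.4% in the Cg, and 18.4% to 33.6% were called lower. With so few probes, marker counts near these shares are not read as results.

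The serotonin and dopamine probes differed widely in signal. The first Ddc probe exceeded the empty spots in 56 HAB and 55 LAB channels of 70 and the probe named SERT in 40 and 39. Htr2a followed with 27 and 25, the second Ddc probe with 23 and 25, and Htr1a with 21 and 17. The Slc6a4 probe that carries the full gene name passed in only 4 HAB and 5 LAB channels (5.71% and 7.14%), a smaller share than that of the empty spots. This probe was not detectable above the empty spots.

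**Figure D1:**
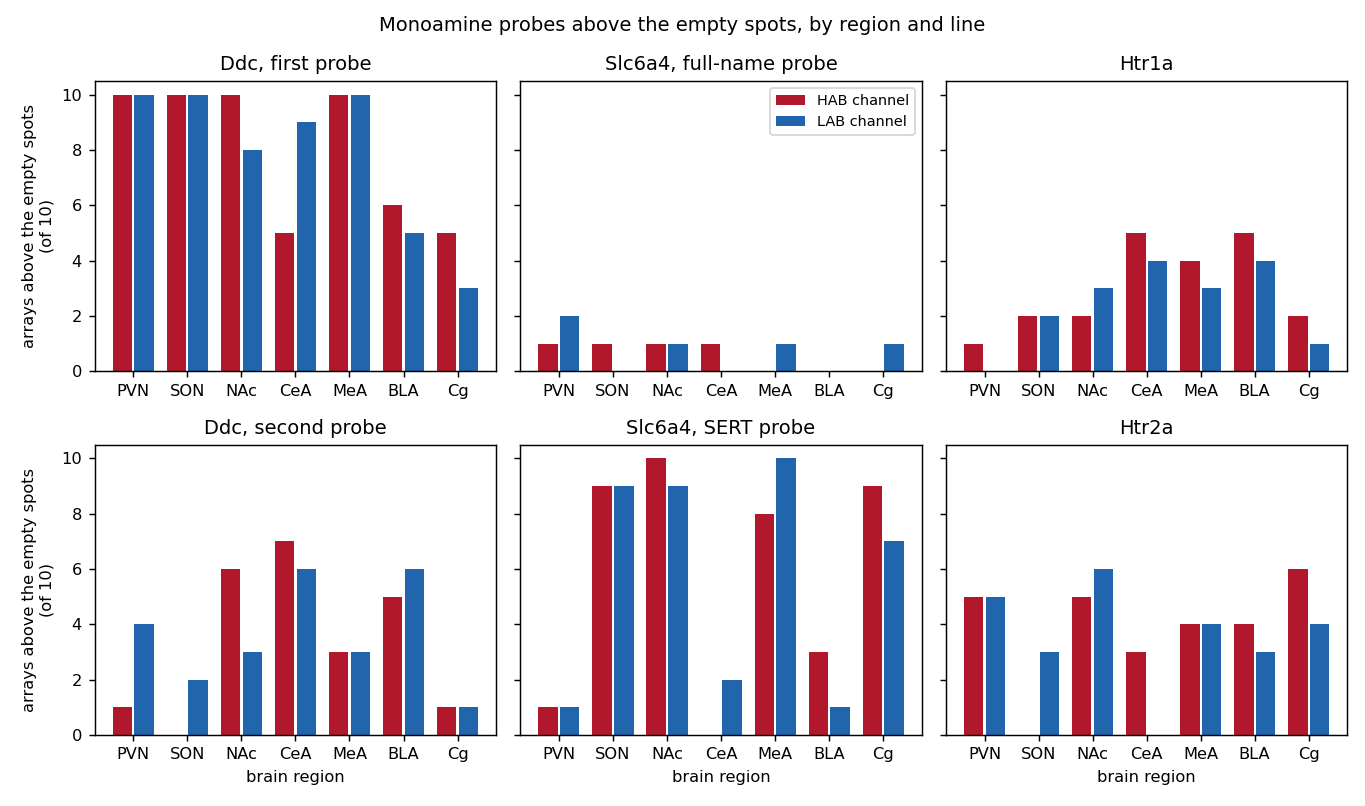
Number of arrays (of 10 per region, y axis) on which each probe lay above the empty spots, by brain region (x axis), with the HAB channel in red and the LAB channel in blue. The first Ddc probe passed on all 10 arrays of both lines in the PVN, SON and MeA, and the SERT probe passed on at least 7 in the SON, NAc, MeA and Cg, but on at most 3 in the PVN, CeA and BLA.

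Whether a monoamine gene differed between the lines across the brain was asked with 1 value per region. Mean log2 HAB/LAB over the 7 regions lay between -0.12 for Htr1a and 0.11 for Htr2a, and adjusted p-values ran from 0.897 to 0.995 (limma). Thus 0 of the 6 probes passed, against 0.302% of all probes on the array, and 0 of the 6 reached an unadjusted p of 0.05, against 6.33% of all probes. All 7 regions came from the same mice, so that these p-values understate the uncertainty about the lines. The 95% confidence intervals come from the same fit and are too narrow for the lines in the same way. The interval ran from -0.19 to 0.17 for the first Ddc probe, from -0.09 to 0.28 for the SERT probe, from -0.30 to 0.06 for Htr1a and from -0.09 to 0.32 for Htr2a, on the log2 scale. The direction held in 5 of 7 regions at most: HAB was higher in 5 regions for the SERT probe and Htr2a, and LAB was higher in 5 regions for Htr1a.

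Within single regions, 0 of 42 tests of a probe passed, against 0.364% of the tests of all probes (0.386% in the PVN, 0.0789% in the SON, 1.27% in the NAc, 0.0701% in the CeA, 0.114% in the MeA, 0.101% in the BLA and 0.53% in the Cg). Before adjustment 4 of the 42 were under 0.05 (9.61% over all probes), and in 40 of 42 the mean difference was smaller than the SD of the 10 arrays. That SD ranged from 0.178 to 1.10 with a median of 0.708. In 9 cases a probe was above the empty spots on some arrays of 1 line and on none of the other, and in 1 case (the full-name Slc6a4 probe in the BLA) on none of both. The lower limit of the fold was under 1 in each of the 9, and no fold is given for these.

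**Figure D2:**
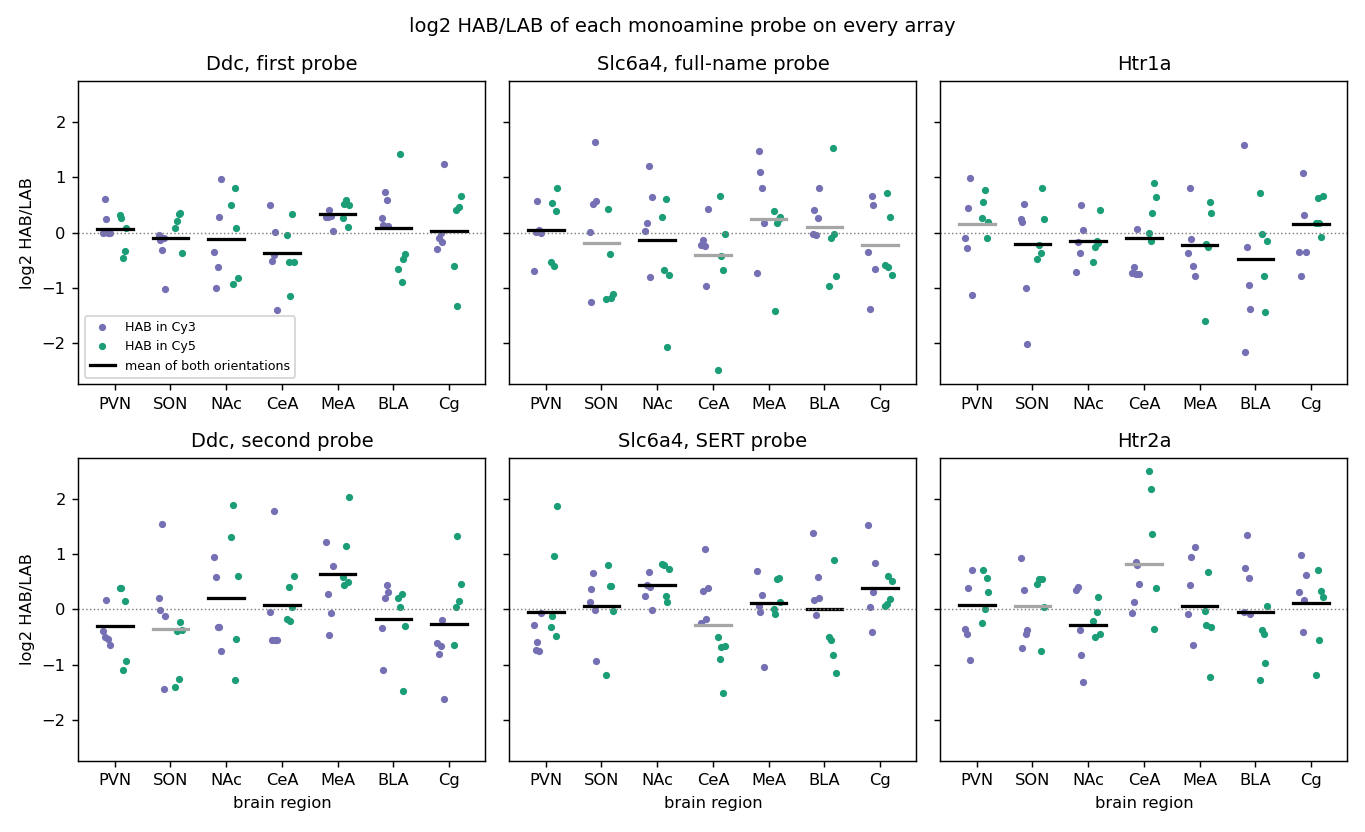
Log2 HAB/LAB (y axis, positive where HAB is higher) on each of the 10 arrays of a region (x axis), purple where HAB carried Cy3 and green where it carried Cy5. The line marks the mean of both orientations, in grey where 1 or both lines lay above the empty spots on none of the 10 arrays. The first Ddc probe in the MeA is above 0 on all 10 arrays, at a mean of 0.33, and most other sets of arrays straddle 0.

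Ddc, the enzyme of both pathways, gave its most even difference in the MeA. On the first probe log2 HAB/LAB there was 0.28, 0.28, 0.41, 0.31 and 0.04 where HAB carried Cy3, and 0.26, 0.51, 0.59, 0.10 and 0.51 where it carried Cy5. HAB was thus higher on 10 of 10 arrays, which held for no other probe and region among the 42. The mean of 0.33 (SD 0.178, 95% confidence interval 0.05 to 0.61) did not pass the test (unadjusted p = 0.0242, adjusted p = 0.6005, limma over 10 arrays). The second Ddc probe had a mean of 0.65 in the MeA, with a lowest, median and highest array of -0.46, 0.55 and 2.03. HAB was higher on 8 of 10 arrays, and the test did not pass either (unadjusted p = 0.00649, adjusted p = 0.476), with the probe above the empty spots on 3 of 10 arrays in each line.

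In the CeA the first Ddc probe leaned the other way, with a mean of -0.37 (SD 0.598) and LAB higher on 7 of 10 arrays (adjusted p = 0.465). There it passed the empty spots on 5 arrays in HAB and 9 in LAB. In the PVN and SON, where the probe was bright, log2 HAB/LAB was 0.07 (SD 0.315) and -0.10 (SD 0.409), both within the spread of the arrays. The means of the 2 Ddc probes had the same sign in 2 of 7 regions, the MeA and the SON. An unequal difference over the regions was tested on its own and was not called for the first or the second probe (F-test, adjusted p = 0.654 and 0.332), where 4.06% of all probes passed.

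Measured levels of Ddc varied more between regions than between HAB and LAB. Line differences were taken within arrays, while regions were measured on different arrays and scan days. The HAB and LAB pools of a region shared arrays, so that p-values of levels leave out differences between arrays and scan days. The HAB pools of the first probe stood at log2 intensities of 10.23 in the PVN, 10.11 in the SON, 9.16 in the NAc, 8.79 in the CeA, 10.43 in the MeA, 9.18 in the BLA and 8.39 in the Cg. The LAB pools stood at 10.16, 10.21, 9.27, 9.16, 10.10, 9.09 and 8.36 in the same order of regions. MeA, PVN and SON formed the upper end, with no called step between them. The NAc followed 0.94 below the SON (adjusted p = 9.33e-05). No step was called from NAc to BLA or from BLA to CeA, and the Cg was lowest, 0.60 below the CeA (adjusted p = 0.00262). Against the mean of the other regions, the MeA was 1.89-fold and the PVN 1.79-fold higher. The Cg, with only 8 of 20 channels above the empty spots, was 2.43-fold lower (adjusted p = 1.19e-08). Such regional calls were common on these arrays: over all probes 50.2% of the tests of a region against the other 6 passed, and 23 of 42 did for the 6 probes. By region these shares of all probes were 59.6% in the PVN, 47.3% in the SON, 38.2% in the NAc, 59.8% in the CeA, 38.5% in the MeA, 63.3% in the BLA and 44.8% in the Cg. Between pairs of regions 46.9% passed over all probes, and 67 of 126 did here.

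The second Ddc probe was dimmer and ordered the regions differently. It was highest in the CeA (8.94, 0.94 above the other regions on the log2 scale, adjusted p = 5.57e-06), with 13 of 20 channels above the empty spots. It was lowest in the PVN (7.49, adjusted p = 0.000114), with 5 of 20 channels above them. Elsewhere 2 to 11 of 20 passed, so that no fold is given. No step between neighbours in its order was called. Levels of both Ddc probes correlated at r = -0.42 over the 14 pools, which share arrays and scaling. Probes whose levels were most like those of the first Ddc probe were protein tyrosine phosphatase, receptor type, S (r = 0.907 over the 14 pools), growth factor receptor bound protein 10 (0.906) and amyloid beta (A4) precursor protein (0.900), out of 9238 candidates. The second of these, Grb10, an adaptor of growth factor receptors, is the protein-coding gene next to Ddc in the RefSeq table of the assembly GRCm38.p6. Whether this position bears on the likeness was not tested. For the second Ddc probe the most similar were AI838340 (0.956), Cxcl12 (0.942) and carboxypeptidase X 1 (0.938), without Grb10. For that probe 0.422% of 9238 candidates had an r above 0.9.

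**Figure D3:**
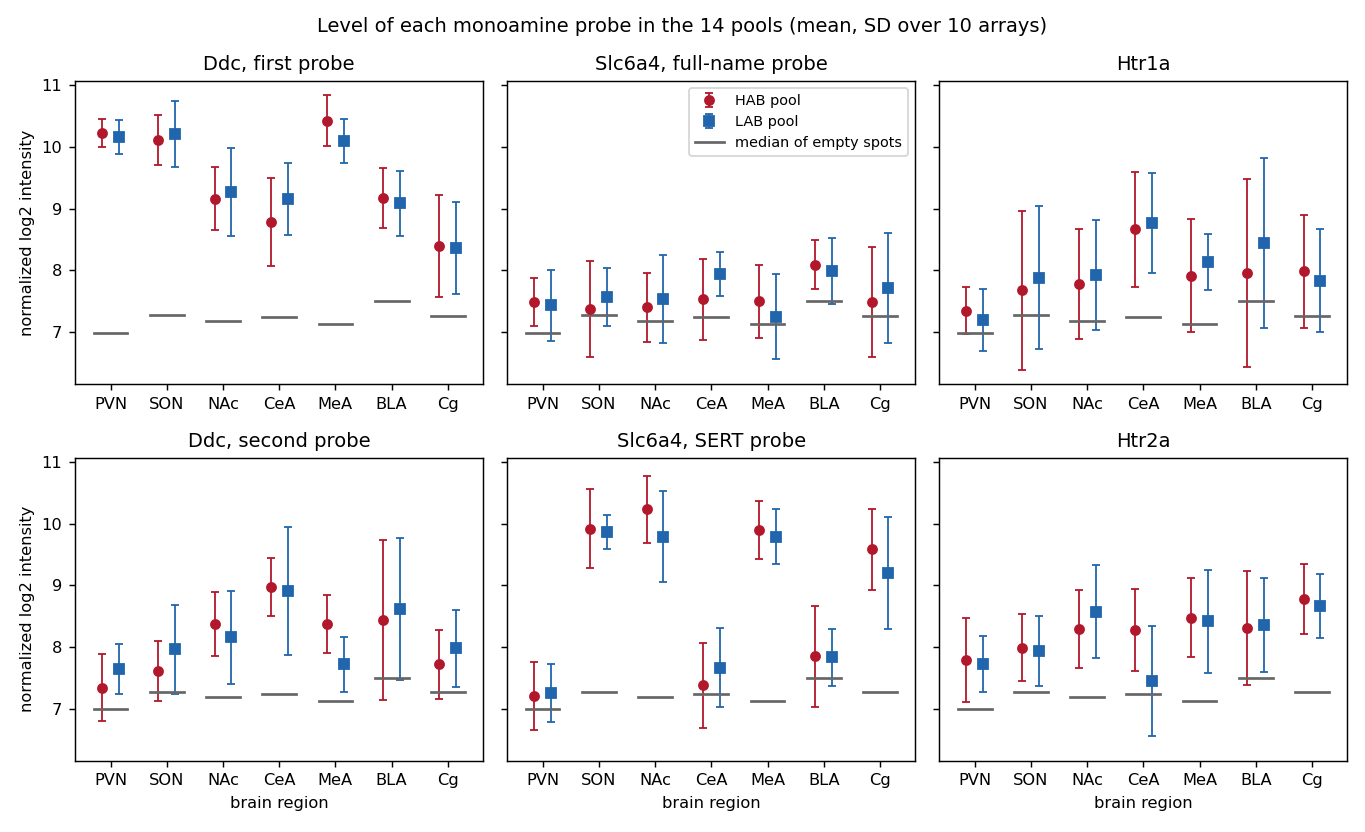
Log2 intensity after normalization (y axis) of each probe in the HAB pool (red circles) and the LAB pool (blue squares) of each region (x axis). Symbols are means and bars the SD over 10 arrays, and grey lines mark the median of the empty spots. The SERT probe stands at 9.21 or above in 8 pools and at 7.85 or below in the other 6, while the full-name Slc6a4 probe stays near the empty spots.

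Slc6a4 had a full-name probe that was not above the empty spots, and a spot named SERT that was assigned to it by that name alone. Levels of both correlated at r = -0.47 over the 14 pools, which share arrays and scaling. The SERT probe had its clearest difference between the lines in the NAc, a main target of midbrain dopamine neurons. Log2 HAB/LAB was 0.23, 0.45, 0.67, 0.40 and -0.02 where HAB carried Cy3, and 0.82, 0.79, 0.24, 0.12 and 0.73 where it carried Cy5, so that HAB was higher on 9 of 10 arrays. The mean of 0.44 (1.36-fold, SD 0.298, 95% confidence interval 0.16 to 0.73) had an unadjusted p of 0.00523 and did not pass after adjustment (adjusted p = 0.158, limma). On the authors' own table of log2 ratios, the same limma fit gave a mean of 0.39 and an adjusted p of 0.0483. That table holds only 10058 probes in the NAc, and whether the values or the number of tests moved the call was not tested. With 1 array left out at a time, the mean stayed between 0.40 and 0.50 and the adjusted p between 0.155 and 0.281.

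The Cg showed a difference of similar size on the SERT probe, with a mean of 0.38 (SD 0.533), a lowest, median and highest array of -0.41, 0.25 and 1.53, and HAB higher on 9 of 10 arrays (adjusted p = 0.481). With 1 array left out at a time this mean lay between 0.24, without replicate 1 with HAB in Cy3, and 0.48. In the MeA and SON, where the probe was equally bright, the means were 0.11 and 0.06, with adjusted p-values of 0.922 and 0.973. An unequal difference over the regions was not called (F-test, adjusted p = 0.616). The full-name probe gave the same sign as the SERT probe in 3 of 7 regions. Its levels lay between 7.37 in the MeA and 8.04 in the BLA. The BLA was called higher than the other regions (0.52, adjusted p = 0.000776), although 0 of 20 channels there were above the empty spots, and the call was lost once the median of the empty spots was subtracted (adjusted p = 0.196).

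Among the 6 probes, the SERT probe had the widest range of measured intensity over the regions, 2.78 on the log2 scale. In the PVN, at its low end, 2 of 20 channels were above the empty spots, so that no fold is given. Its HAB pools stood at 10.23 in the NAc, 9.92 in the SON, 9.90 in the MeA, 9.58 in the Cg, 7.85 in the BLA, 7.38 in the CeA and 7.20 in the PVN. The LAB pools stood at 9.79, 9.86, 9.79, 9.21, 7.84, 7.67 and 7.25 in that order. NAc, SON, MeA and Cg were 2.1 to 2.8 above the median of the empty spots, whereas BLA, CeA and PVN were only 0.24 to 0.34 above it, so that in these 3 regions the level is close to the background. Each of the 7 regions differed from the mean of the others, although the Cg call (0.67, adjusted p = 0.000162) was lost on the arrays with HAB in Cy3 alone (0.46, adjusted p = 0.0735), and between neighbours in the order only the step from Cg to BLA was called (1.55, adjusted p = 2.62e-08).

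This step followed the order of scanning. Arrays of the PVN, BLA and CeA were scanned on the first 5 of 10 scan days and those of the NAc, MeA, Cg and SON on the last 5. No scan day held arrays of more than 1 region, and region and scan day cannot be told apart. All 8 pools scanned later lay above all 6 scanned earlier for 5.81% of all probes and below them for 4.06%, and for 0.513% the later pools were higher by at least the 2.25 of the SERT probe. None of the other 5 probes separated in this way. The probes most like SERT over the 14 pools were heart and neural crest derivatives expressed transcript 1 (r = 0.987), reticulon 3 (0.984) and ankyrin repeat hooked to zinc finger motif (0.979), and 1.78% of 9239 candidates had an r above 0.9.

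Markers of monoamine cell bodies were rarely above the empty spots. The dopamine transporter Slc6a3 passed in 10 HAB and 7 LAB channels of 70, the noradrenaline transporter Slc6a2 in 13 and 19, Nr4a2, a factor of dopamine neurons, in 10 and 6, Fev, a factor of serotonin neurons, in 3 and 4, and En1 in 2 and 1. At most 1 of the 6 marker probes passed on 5 or more of the 10 arrays of any region. The sixth carried the symbol Ptx3, and whether it measures a gene of monoamine neurons is unsure. In the regions where the SERT probe was bright, that number was 0 in the NAc, SON and Cg and 1 in the MeA.

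The serotonin receptors were dim. Htr1a lay above the empty spots on 0 to 5 of 10 arrays in each pool, most often in the CeA and BLA, with 5 HAB and 4 LAB arrays in each. Its mean difference was largest in the BLA, at -0.49, with arrays from -2.17 over a median of -0.53 to 1.59 and LAB higher on 8 of 10 (adjusted p = 0.804). That mean was -0.76 without replicate 1 with HAB in Cy3 and -0.29 without replicate 2 of the same orientation, the ends of its range with 1 array left out. The SD of 1.10 there was the highest among all 42. In the other regions in which both lines were above the empty spots, the means ran from -0.22 in the MeA to 0.15 in the Cg, each smaller than its SD. The confidence interval in the NAc, where the arrays were most even (SD 0.380), ran from -0.46 to 0.18.

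Htr1a was highest in the CeA, at 8.72 over both pools, 0.88 above the other regions on the log2 scale (adjusted p = 1.70e-06). In the CeA 9 of 20 channels were above the empty spots and elsewhere 1 to 9, so that no fold is given. The HAB pool stood at 8.67 and the LAB pool at 8.77 in the CeA. BLA, MeA, Cg, NAc and SON followed between 8.20 and 7.78 with no called step among them, after a step of 0.52 from the CeA (adjusted p = 0.0148), and the PVN was lowest at 7.27. Only 4 of 20 channels in the SON and 1 of 20 in the PVN were above the empty spots, so that these values are close to the background. The probes most like Htr1a were alpha-2-glycoprotein 1, zinc (r = 0.963), prostate cancer overexpressed gene 1 (0.950) and tumor rejection antigen P1A (0.940). Of 9239 candidates 0.411% had an r above 0.9. Outside the CeA, levels of Htr1a were only 0.28 to 0.90 above the median of the empty spots. The part of the background in this likeness was not tested.

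Htr2a had its most uneven values in the CeA. It passed the empty spots on 3 of 10 arrays in HAB and on 0 in LAB, and the log2 intensity was 8.28 in the HAB pool and 7.45 in the LAB pool. HAB was higher on 8 of 10 arrays. The test did not pass (unadjusted p = 0.00419, adjusted p = 0.186), and no fold can be given. This region carried much of the mean over regions: without the CeA the mean log2 HAB/LAB of Htr2a was -0.0033. In the NAc it was -0.28 (SD 0.543, LAB higher on 7 of 10 arrays, adjusted p = 0.574), where 5 arrays passed the empty spots in HAB and 6 in LAB. The PVN, MeA, BLA and Cg gave means from -0.05 to 0.12. An unequal difference over the regions had an unadjusted p of 0.0367 and an adjusted p of 0.295 (F-test).

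Levels of Htr2a were highest in the Cg, at 8.79 in the HAB pool and 8.67 in the LAB pool, 0.59 above the other regions on the log2 scale (adjusted p = 0.00154). In the Cg 10 of 20 channels were above the empty spots and elsewhere 3 to 11, so that no fold is given. MeA, NAc and BLA followed at 8.45, 8.44 and 8.33, and SON, CeA and PVN at 7.96, 7.86 and 7.76, with no called step between neighbours. Of the 21 pairs of regions 9 differed, where 46.9% of such tests passed over all probes. The Cg call was lost on the arrays with HAB in Cy5 alone (adjusted p = 0.0772). The most similar probe was piccolo, a scaffold of the presynaptic active zone (r = 0.858), followed by protein kinase C, zeta (0.850) and AI853102 (0.850).

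A wider list of monoamine genes, chosen for their place in the pathway, had 30 probes under 23 names. Of these, 25 were above the empty spots on at least 5 of 10 arrays of some region. None passed the test between the lines over the 7 regions, and 0 of 30 had an unadjusted p under 0.05 (limma). Their median log2 HAB/LAB was 0.01, against -0.00 over all probes, and their values ran from -0.18 for Slc6a2 to 0.17 for the brighter probe of Qdpr (adjusted p = 0.878).

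**Figure D4:**
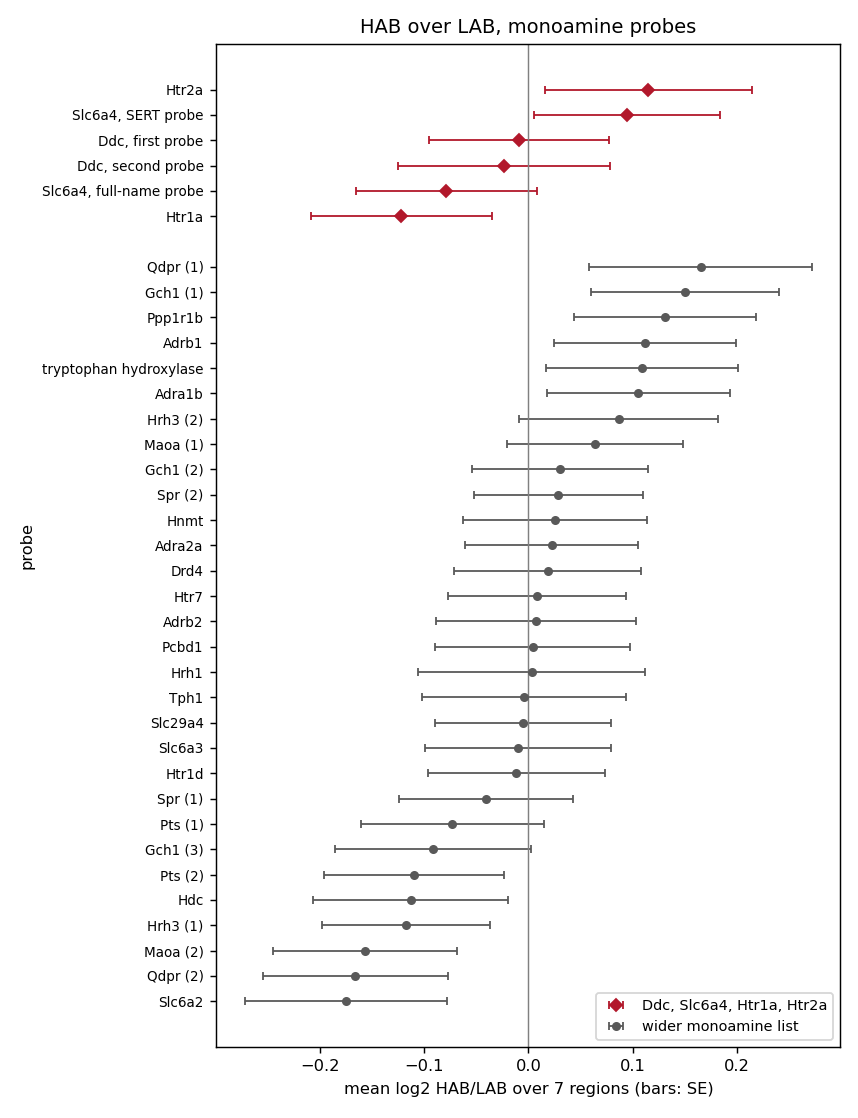
Mean log2 HAB/LAB over the 7 regions (x axis, bars are SE) for the probes of Ddc, Slc6a4, Htr1a and Htr2a (red diamonds) and of the wider monoamine list (grey circles), with numbers for probes of 1 gene. All means lie between -0.18 and 0.17.

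In single regions 1 of 210 tests of the wider list passed, where 0.364% of all tests on the array did (1.27% in the NAc). In the F-test for unequal differences 1 of its 30 probes passed, against 4.06% of all probes. Such small shares are read as no result about the list. Both calls belonged to the brighter of 2 probes of Qdpr, the reductase that regenerates tetrahydrobiopterin, the cofactor of the hydroxylases that make dopamine and serotonin. In the NAc its log2 HAB/LAB was 0.66 (1.58-fold, SD 0.315), with a lowest, median and highest array of 0.00, 0.68 and 1.05 and HAB higher on 10 of 10 arrays (adjusted p = 0.0357). The same probe stood at 0.41 in the Cg (10 of 10 arrays), 0.37 in the MeA, 0.29 in the SON and 0.08 in the PVN, but at -0.08 in the BLA and -0.57 in the CeA, where HAB was higher on 1 of 10 arrays. The regions differed (F-test, adjusted p = 1.34e-05). It lay above the empty spots on all 70 arrays in both lines. The second Qdpr probe, above them in 28 HAB and 34 LAB channels, stood at 0.28 in the NAc (adjusted p = 0.731), -0.44 in the Cg and -0.19 in the CeA. Of the oligodendrocyte markers, 13 probes of Mbp, Mobp and Mog had a median log2 HAB/LAB of 0.06 in the NAc, with 2 of them called lower in HAB, 0.13 in the Cg, with 1 called lower, 0.03 in the MeA, 0.10 in the SON, 0.12 in the PVN, -0.14 in the BLA and -0.33 in the CeA. Their part in the Qdpr values was not tested.

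Regional levels within the wider list were called at shares on either side of those of all probes. In the PVN 20 of its 30 probes differed from the other regions, 11 higher and 9 lower (66.7% in all, where 30.5% of all probes were higher and 29.1% lower), and in the NAc 10 did (33.3%, against 38.2% of all probes). The shares were 50% in the SON, 53.3% in the CeA, 33.3% in the MeA, 43.3% in the BLA and 33.3% in the Cg, against 47.3%, 59.8%, 38.5%, 63.3% and 44.8% of all probes in that order of regions. The brighter probe of Maoa, monoamine oxidase A, which breaks down serotonin and noradrenaline, was highest in the PVN (10.2, 1.50 above the other regions on the log2 scale, adjusted p = 1.42e-10). The second Maoa probe was called the other way in the PVN (-0.38, adjusted p = 0.0118, limma). It was dim, above the empty spots in 5 HAB and 9 LAB channels of 70. Other genes of the list also differed in the PVN. Of 3 Gch1 probes, 1 was lower (-1.64, adjusted p = 1.87e-10, limma), 1 higher (0.32, adjusted p = 0.0374) and 1 not called (0.24, adjusted p = 0.0881). A probe of Pts was lower (-1.51, adjusted p = 1.77e-10) and its other probe not called (-0.18, adjusted p = 0.217). Pcbd1 was higher (1.21, adjusted p = 3.25e-08). Htr1d was highest in the BLA (8.96, 1.75 above the others, adjusted p = 1.91e-11). It is named here only through its signal in the BLA, with 11 of 20 channels above the empty spots. Elsewhere at most 3 of 20 channels passed, so that its other levels are close to the background. Drd4 was lowest in the BLA (8.14, a log2 difference of -1.28, adjusted p = 7.39e-09), where 2 of 20 channels passed. Of 11 choroid plexus and ependyma probes 6 were called higher and 0 lower in the BLA than in the other regions. Over all probes 29.6% were higher there and 33.6% lower. The 6 included 2 of 3 probes of Ttr, by 3.50 and 3.96. The 11 probes had a median log2 HAB/LAB of -0.53 in the BLA, with 4 called lower in HAB. Their part in the BLA values was not tested.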

How the data were processed

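For each of the 70 arrays the authors deposited scanner files with the fluorescence intensity of every spot and its local background in both dyes, on a linear scale and not normalized. The authors also deposited a table of log2 ratios, normalized by their own methods. Compared with the scanner values of the same arrays, these log2 values ran as HAB over LAB on 70 of 70 arrays and had column medians of -0.007 to 0.011. They were used as an alternative, and 8456 to 18770 values were given per region. Group, dye and replicate number came from the sample labels.

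Of 24192 spots, 1368 controls and empty spots were left out. Intensities were corrected with normexp (offset 50, limma 3.58.1, R 4.3.3), normalized by loess over 40% of the spots, then centred on print-tip block medians and, for levels, by quantiles of the mean levels between arrays. Local background was 0 for 79.8% of values. Ratios were averaged per dye orientation first, then across the 2 orientations.

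Line differences were tested with limma over the 7 region means, over the 10 arrays of a region with a dye term, and with an F-test over 70 arrays. Levels were tested over the 14 pools with line as a term, and differences between arrays or scan days do not enter these p-values. P-values were Benjamini-Hochberg adjusted over all 22824 probes, with a threshold of 0.05. On simulated data for 22824 probes the test over regions recovered 76% of log2 differences of 0.5, the test within a region 2% of 0.5 and 63% of 1, the F-test 1% of 0.5 and 33% of 1, and the level test 31% of 0.5 and 91% of 1. Alternatives varied background, normalization, filter, dye orientation, replicate and scan-day blocks, left-out arrays and regions, and the source of the ratios.

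Named were all probes of the 9 genes, genes of the wider list with signal or past a test, and the 3 probes most correlated in level with each of the 5 member probes that passed the empty spots on at least 5 of 10 arrays of a region. The genes and lists were chosen with earlier results of these data known. Some genes of the lists are not reported here. No probe sequences were used here.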

Additional observations from a re-analysis of the deposited data

Results flagged for a closer look

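Of 84 sets of 5 arrays (6 probes, 7 regions, 2 dye orientations), 6 held an array far from the other 4, where chance flags about 1 in 20. The first Ddc probe stood at a log2 HAB/LAB of 1.43 on replicate 2 with HAB in Cy5 in the BLA, against -0.899 to -0.388 on the other arrays. It stood at 1.24 on replicate 5 with HAB in Cy3 in the Cg (others -0.304 to -0.00784) and at -1.02 on replicate 5 with HAB in Cy3 in the SON (others -0.308 to -0.0518). The second Ddc probe stood at 1.77 on replicate 3 with HAB in Cy3 in the CeA (others -0.559 to -0.0474). The full-name Slc6a4 probe stood at -1.41 on replicate 2 with HAB in Cy5 in the MeA (others 0.172 to 0.398). Htr1a stood at 0.0638 on replicate 4 with HAB in Cy3 in the CeA (others -0.755 to -0.618). In the wider list the brighter Qdpr probe differed between the lines unequally over the regions (limma F-test, adjusted p = 1.34e-05).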

How the results depend on the processing

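No member probe passed over the 7 regions or in the F-test under any alternative run, and 0 of 42 tests within regions passed with each array left out in turn. The authors' table gave 1 call within a region, the SERT probe in the NAc. For most of the 42 pairs of probe and region that table held no values, and in the Cg it held none for any member probe. Those tests could not be run on it and are not negative results. That table has no member probe with values in all 7 regions, so that the tests over regions and of unequal differences were not run on it. Of 23 level calls against the other regions, 18 to 25 were found under the alternatives, the lowest with HAB in Cy5 alone, and of 67 calls between pairs of regions 59 to 75. Counted once per contrast and alternative, so that 1 contrast can count more than once, a level call was lost 16 times and gained 10 times. In 261 cases it did neither. Subtracting the empty spots was chosen after seeing the data.

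Means over the regions that turned their sign were all uncalled, with the cause not tested. For the first Ddc probe they were 0.035 with loess alone, 0.0032 with loess in each print-tip block, 0.016 with HAB in Cy3 alone, and 0.0060, 0.0080 and 0.052 without SON, NAc and CeA. For the second they were 0.074 with HAB in Cy5 alone, and 0.024, 0.032, 0.0024 and 0.016 without PVN, SON, BLA and Cg. The full-name Slc6a4 probe gave 0.13 with HAB in Cy3 alone, Htr1a 0.040 with HAB in Cy5 alone and Htr2a -0.0033 without CeA. With each region left out in turn, the first Ddc probe ranged from -0.065 to 0.052, the second from -0.13 to 0.032 and Htr2a from -0.0033 to 0.18.

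Replicate numbers did not pair the arrays: arrays of the same number correlated between -0.051 and 0.042, 0 of 35 pairs exceeded 0.1, and 18 of 70 arrays correlated best with their own number. With the replicate block, 0 members were called, and over all probes calls fell in every region, to 86 against 290 without the block in the NAc and to 10 against 121 in the Cg. Only 2 of 6 probes passed the empty spots on at least 35 of 70 arrays, which limits what could be detected.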
